A study of Homo sapiens with 6 samples.

Results

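The short arm of chromosome 11 (11p) was described as the set of all binding sites called there for 2 chromatin proteins in human lung epithelial cells. Members were all peaks of the 3 deposited lists whose summit, the position of highest signal within a peak, lay on chromosome 11 below 53.7 Mb of the hg19 genome build, the cytogenetic end of the arm. This gave 717 of the 35687 peaks in all: 251 of 9769 for BRD8 in Calu3, 31 of 9505 for BRD8 in 16HBE14o- and 435 of 16413 for CTCF in Calu3. The arm was chosen by its difference in BRD8 peaks between the cell lines, so those counts are given as a description and were not tested.

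The peaks came from chromatin immunoprecipitation followed by sequencing (ChIP-seq) of 6 samples, 2 replicates of each of the 3 experiments. Calu3 is a human lung adenocarcinoma line and 16HBE14o- a human bronchial epithelial line, and each is a single line standing for its kind of cell. All cells were grown in DMEM with 10% FBS and received no treatment. BRD8 was precipitated with the Active Motif 61007 antibody and CTCF with Millipore 07-729. For each experiment the authors made 1 list from both replicates with an IDR procedure (irreproducible discovery rate), a filter for peaks whose ranks are reproducible. No value per replicate was therefore available, sequencing depth was unknown, and every interval below is a 95% interval for counting error only.

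BRD8 is a bromodomain protein, a reader of acetylated lysine, and a subunit of the NuA4/TIP60 complex, which acetylates histones and exchanges histone variants at chromatin. CTCF recognises a long DNA motif through its zinc fingers and, with cohesin, anchors chromatin loops and insulates neighbouring domains. The tip of the arm, band 11p15.5, is known for the imprinted IGF2 and H19 genes and for a cluster of gel-forming mucin genes of the airway, and band 11p13 for epithelial regulators such as EHF. Peaks were not assigned to genes here, because no hg19 annotation was used.

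Calu3 BRD8 summits lay between positions 189984 and 47956187, with a longest gap of 4.39 Mb, whereas 16HBE14o- BRD8 peaks were few. The arm held 2.57% of the Calu3 BRD8 list, 2.65% of the CTCF list and 0.326% of the 16HBE14o- BRD8 list. Densities were 4.67 Calu3 BRD8, 8.10 CTCF and 0.577 16HBE14o- BRD8 peaks per Mb. The ratio of list shares, Calu3 BRD8 over 16HBE14o- BRD8, was 7.88 (5.41 to 11.8). Of all BRD8 peaks on the arm 10.99% came from 16HBE14o-, against 49.3% when both lists were taken whole. After overlapping peaks of a list were merged, 208 Calu3 BRD8, 31 16HBE14o- BRD8 and 424 CTCF regions were left. The number of DNA copies of the arm, the occupancy of BRD8 and the power to detect it cannot be told apart from these lists, since copy number and input libraries were not analysed here.

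The arm was divided into bins of 5 Mb from the chromosome end, numbered 1 to 11, the last being shorter and free of peaks in every list. Bin 1, at the tip, was the richest, with 76 Calu3 BRD8, 16 16HBE14o- BRD8 and 120 CTCF peaks. Bins 2, 3 and 4 were alike: bin 2 held 30 Calu3 BRD8, 2 16HBE14o- BRD8 and 54 CTCF peaks. Bin 3 held 28, 2 and 50, and bin 4 held 33, 2 and 51, in the same order. All 3 protein maps thinned out in the middle of the arm. Bin 5 held 6 Calu3 BRD8, 0 16HBE14o- BRD8 and 11 CTCF peaks, and bin 6 held 4, 0 and 14. Bin 7 held 12, 1 and 33, and bin 8 held 10, 0 and 17. Peaks became denser again towards the centromere, with 21, 3 and 25 in bin 9 and 31, 5 and 60 in bin 10. Among bins 1 to 10, all 3 lists were thus fullest in bin 1 and emptiest in bins 5, 6 and 8.

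**Figure D1:**
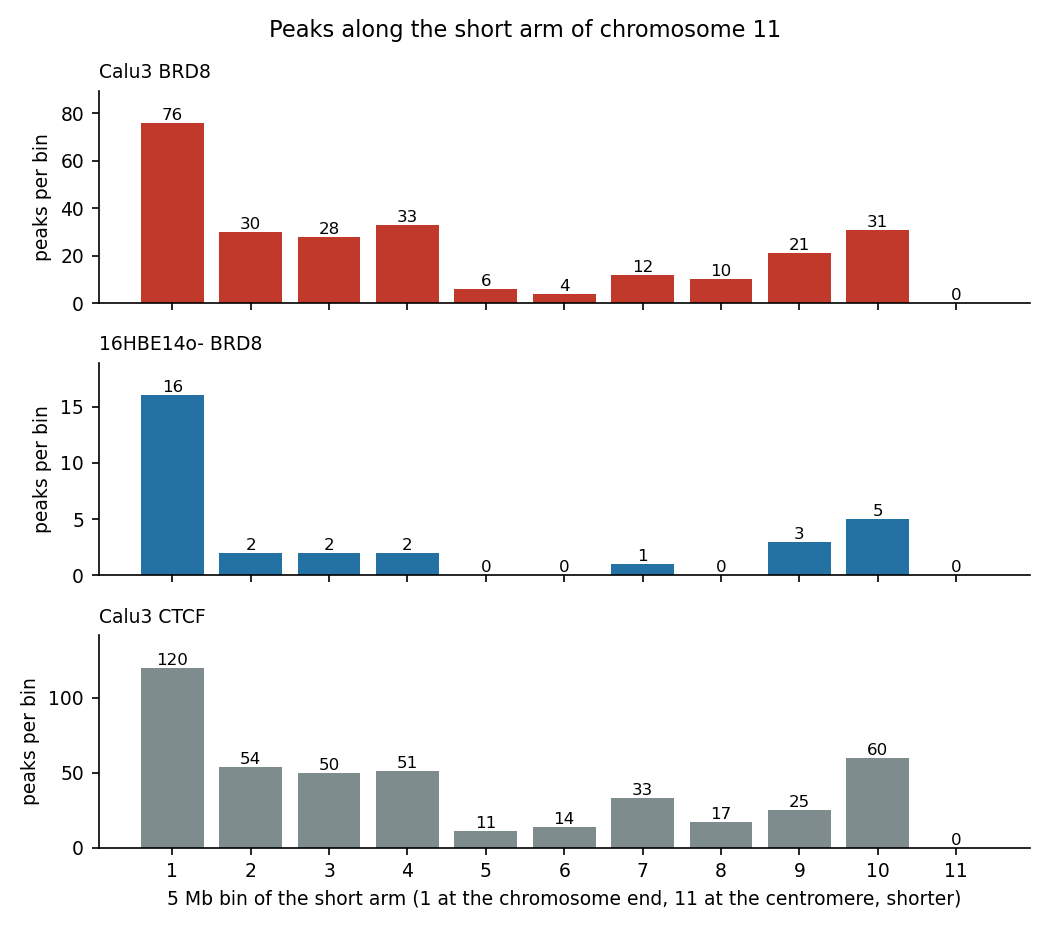
Peaks per 5 Mb bin of the arm for Calu3 BRD8 (top), 16HBE14o- BRD8 (middle) and Calu3 CTCF (bottom); bars are counts of peaks, bin 1 is at the chromosome end, and each panel has its own scale. Every map peaks in bin 1 (76, 16 and 120 peaks), while 16HBE14o- has 0 in bins 5, 6 and 8.

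The 16HBE14o- share of the list was below the Calu3 share in every bin that held enough peaks to measure it. A bin was counted as deficient where the ratio of list shares was at least 3, and only bins with at least 5 BRD8 peaks over both lines were measured. On the arm 8 of 9 such bins met this, and over all such bins of the genome 51 of 517 did (9.86%). The arm was chosen for this contrast, so nothing is read from that excess. The ratio was 4.62 (2.67 to 8.49) in bin 1, 14.6 (3.70 to 126) in bin 2, 13.6 (3.43 to 118) in bin 3 and 16.1 (4.11 to 138) in bin 4. Bins 5 and 8 held no 16HBE14o- peak, and against a floor of 3 peaks their ratios were at least 1.95 and at least 3.24. Their exact lower limits for counting error were smaller, 1.15 and 2.18, so bin 8 counts among the 8 through the floor alone. Bin 7 had a ratio of 11.7 (1.73 to 499), bin 9 of 6.81 (2.03 to 35.7) and bin 10 of 6.03 (2.33 to 19.9). In all 9 bins the interval lay above 1 and held the value of the whole arm. The value of the arm includes each bin, so this comparison cannot show whether the deficit was uniform.

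The tip had the smallest ratio among bins whose ratio was not a bound, and it was set against the rest of the arm after the bins had been seen. The rest held 175 Calu3 BRD8 and 15 16HBE14o- BRD8 peaks, a ratio of 11.4 (6.70 to 20.7). The odds that a BRD8 peak came from 16HBE14o- were 2.46 times as high at the tip (1.07 to 5.62). The odds ratio was 2.90 (1.24 to 6.72) with merged peaks and 7.26 (1.29 to 73.5) in the upper 50% of each list. With a tip of 2.5 Mb it was 1.74 (0.686 to 4.13), and with 10 Mb it was 1.89 (0.834 to 4.39). The direction was the same in all 4, but the interval included 1 with either other length of the tip. CTCF peaks at the tip were also stronger: their median percentile in the CTCF list was 64.2, against 47.3 on the rest of the arm. The part of CTCF strength in the odds ratio was not tested, but a comparison that allows for CTCF strength is given below.

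Counts by cytogenetic band were also uneven. Band 11p15.5 held 57 Calu3 BRD8, 11 16HBE14o- BRD8 and 94 CTCF peaks, and 11p15.4 held 52, 7 and 85. Next to the centromere 11p11.2 held 50, 7 and 81. These 3 bands contained 25 of the 31 16HBE14o- peaks. Band 11p15.1, by contrast, held 31 Calu3 BRD8 and 49 CTCF peaks with 1 from 16HBE14o-, and 11p13 held 16 and 38 with 1. The sparse bands 11p14.3, 11p14.2 and 11p14.1 together had no 16HBE14o- peak.

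Long stretches passed without any 16HBE14o- peak. The longest ran for 16.1 Mb between the summits at 18265491 in 11p15.1 and 34381017 in 11p13, and 32 Calu3 BRD8 and 68 CTCF peaks lay inside it. Of the 9482 intervals between neighbouring 16HBE14o- peaks in the genome it held the most Calu3 BRD8 peaks. It was followed by 25 each in one on the short arm of chromosome 3 and a much shorter one in band 8q24.3. The arm was chosen for this contrast, so nothing is read from that order. The next stretch on the arm, from 34381017 to 43333408, was 8.95 Mb long with 12 Calu3 BRD8 and 24 CTCF peaks. A stretch of 9.67 Mb crossed the centromere, from 47377016 to 57045502, with only 5 Calu3 BRD8 and 16 CTCF peaks. Neighbouring peaks on the arm were a median of 59.7 kb apart for Calu3 BRD8, 40.7 kb for CTCF and 382 kb for 16HBE14o- BRD8.

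Besides being few, the 16HBE14o- peaks on the arm were weak within their own list. Peaks were ranked by the authors' signal within each list, and a percentile of 100 is the strongest peak of the list. The 31 peaks ran from percentile 0.621 to 69.2, with a median of 39.2 and quartiles of 19.1 and 52.0. Of these, 12 lay at percentiles up to 25, 10 from 25 to 50, 9 from 50 to 75 and 0 above 75. Among the 40 chromosome arms with at least 20 16HBE14o- peaks, 11p had the lowest maximum, followed by 9p at 94.0. Its median was the 4th lowest, the lowest being 34.8 on 4q. The maximum is taken over only 31 peaks here, and the part of that number in the low maximum was not tested.

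Calu3 peaks on the arm had ordinary strength. The 251 BRD8 peaks had a median percentile of 50.4, with quartiles of 26.2 and 73.3, and 59, 66, 67 and 59 of them fell into the same 4 ranges from weakest to strongest. The 435 CTCF peaks had a median of 49.5, with quartiles of 22.2 and 74.5. The top decile of the lists held 22 Calu3 BRD8 and 44 CTCF peaks of the arm. Of those 22 strong BRD8 peaks, 14 overlapped no 16HBE14o- peak. The matching share of the top decile on the rest of the genome is not given here. The Calu3 BRD8 list was also divided by signal into 5 classes of about equal size. In the strongest class 11 of 49 peaks on the arm were called in 16HBE14o- (22.4%), against 74.9% on the rest of the genome. Since the arm was chosen for this contrast, these values are descriptions.

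**Figure D2:**
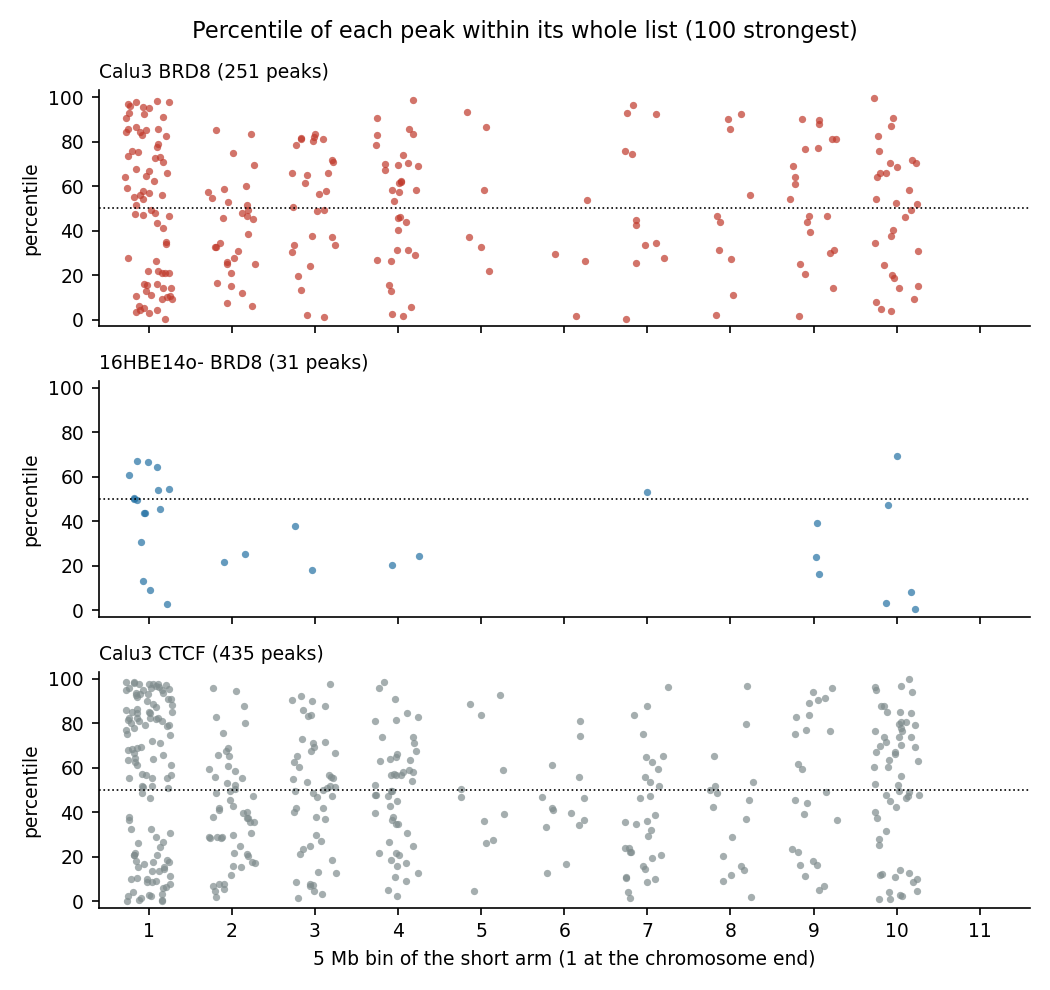
Percentile of every peak on the arm within its whole list (100 strongest, dotted line at 50) by 5 Mb bin, with points spread sideways at random within a bin. Calu3 BRD8 and CTCF peaks fill the range, while the 31 16HBE14o- peaks end at 69.2.

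Within the arm, 16HBE14o- peaks at the tip ranked higher in value than the others. The 16 peaks of the tip had a median percentile of 49.8, and the 15 others one of 23.8. In bins 2, 3 and 4 the medians were 23.6, 28.0 and 22.4, and in bins 9 and 10 they were 23.8 and 8.20, each from 2 to 5 peaks. The exception was bin 7, whose single peak was at percentile 53.3, above the median of the tip. Median percentiles of Calu3 BRD8 lay between 41.9 and 58.3 in every bin except bin 6, where 4 peaks had a median of 27.9. CTCF medians ranged from 34.9 in bin 7 to 64.2 in bin 1.

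The strongest BRD8 peaks of both lines on the arm were the same site. In Calu3 it was at chr11:47376745-47377096 in 11p11.2, with a signal of 191.0 and rank 54 of its list. In 16HBE14o- it was at chr11:47376904-47377127, with a signal of 34.7 and rank 2929. A CTCF peak of rank 2430 lay beneath both, 14 bp from the Calu3 BRD8 summit. Signals of different lists may not share a scale, so only the ranks are set side by side.

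Other strong Calu3 BRD8 sites at CTCF peaks had 16HBE14o- counterparts of middle rank. At chr11:2951995-2952254 in 11p15.4 the Calu3 peak ranked 187 and the 16HBE14o- peak 4766, with summits 1 bp apart, over a CTCF peak of rank 430. At chr11:2554048-2554281 in 11p15.5 the ranks were 216 in Calu3 and 4381 in 16HBE14o-, and 848 for CTCF. At chr11:4208850-4209073 in 11p15.4 the 16HBE14o- peak ranked 3377, the Calu3 BRD8 peak 420 and the CTCF peak 318. Each site thus stood near the top of both Calu3 lists, and at percentiles from 49.9 to 64.5 of the 16HBE14o- list.

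At several of the strongest Calu3 sites no 16HBE14o- peak was called within 1 kb. The strongest of these, chr11:19092778-19093049 in 11p15.1, ranked 112 and lay 827 kb from the nearest 16HBE14o- peak, over a CTCF peak of rank 6896. The second, chr11:728064-728310 in 11p15.5, ranked 199 over the CTCF peak of rank 246. The third, chr11:518707-518927 in 11p15.5, ranked 292 and met the CTCF peak of rank 225. The others were chr11:34195982-34196141 in 11p13, of rank 341 with CTCF of rank 583, and chr11:2326494-2326969 in 11p15.5, of rank 461 with CTCF of rank 2486. In all, 221 of the 251 Calu3 BRD8 peaks had no 16HBE14o- peak within 1 kb. By overlap, 10.8% of the 251 were called in 16HBE14o-, where the whole list had 50.1%. With only 31 16HBE14o- peaks on the arm, this share could not be high.

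A converse set of 11 16HBE14o- peaks had no Calu3 BRD8 peak within 1 kb, and all of them overlapped a CTCF peak. The strongest was chr11:364548-364771 in 11p15.5, of rank 3143, at a CTCF peak of rank 3288. It was followed by chr11:798278-798501 (rank 4321, CTCF 687) and chr11:1903733-1903956 (rank 4690, CTCF 1880), both in 11p15.5. The site chr11:46368801-46369024 in 11p11.2, of rank 4998, lay on the strongest CTCF peak of the arm, at rank 14, whose nearest Calu3 BRD8 peak was 20.2 kb away. The fifth was chr11:3238493-3238716 in 11p15.4, of rank 5323 with CTCF of rank 2309. The other 6 ranked from 5332 to 9230. The strongest Calu3 CTCF site of the arm was therefore one at which BRD8 was called in 16HBE14o- and not in Calu3.

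Calu3 BRD8 peaks away from CTCF were weaker, on the arm as elsewhere, and those of the arm were almost never called in 16HBE14o-. On the arm 46 Calu3 BRD8 peaks had no CTCF peak within 1 kb. The strongest was chr11:35843558-35844033 in 11p13, of rank 951, with the nearest CTCF peak 203 kb away. Next came chr11:13977398-13977873 in 11p15.2 at rank 1602 and chr11:32194879-32195354 in 11p13 at rank 2361. Calu3 BRD8 peaks of the arm had a median percentile of 57.5 where they overlapped CTCF and of 27.6 where they did not. On the rest of the genome these medians were 58.8 and 33.4. Of the 55 that overlapped no CTCF peak 1 was called in 16HBE14o- (1.82%), against 23.1% of such peaks on the rest of the genome. Of the 196 that overlapped CTCF 26 were called in 16HBE14o- (13.3%), against 62.9%. The arm was chosen for this contrast, so both shares are descriptions.

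In Calu3, BRD8 peaks of the arm lay at CTCF peaks somewhat more often than elsewhere. Overlap means at least 1 shared bp. Of 251 Calu3 BRD8 peaks 196 overlapped a CTCF peak, which is 78.1% (72.5 to 83.0), where the whole list had 70.5%. The difference from the rest of the list was 7.83 percentage points (2.24 to 12.6). The interval also lay above 0 under reciprocal overlap, with summits within 100 bp, with lists of equal length and after merging, where the differences ran from 6.88 to 8.79 points. It included 0 with every peak set to 200 bp around its summit, at 5.89 (-0.179 to 11.4), and in the upper 50% of each list, at 4.80 (-3.90 to 12.5). Single arms varied widely in this share, with 77.6% on the long arm of chromosome 11, 93.5% on 16q and 59.5% on 10p. A share of this size was therefore not particular to 11p. Read from the side of CTCF, 170 of 435 peaks had Calu3 BRD8, 39.1% (34.5 to 43.8), where the whole list had 36.1%. That difference from the rest was 3.08 points (-1.45 to 7.80), an interval that includes 0. Summits of overlapping peaks were a median of 37.5 bp apart on the arm and 37 bp on the rest of the genome.

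In contrast, few CTCF peaks of the arm carried BRD8 in 16HBE14o-. Of the 435 CTCF peaks 30 overlapped one, 6.90% (4.70 to 9.70), where the whole list had 38.0%. The difference from the rest of the list was -32.0 points (-34.1 to -29.1). The rule used the 16HBE14o- peaks, so this share is a description too. CTCF was mapped in Calu3 alone, and whether 16HBE14o- has CTCF at these sites was not tested.

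Seen from the BRD8 peaks, sharing between the lines was lopsided on the arm. Of the 251 Calu3 BRD8 peaks 27 were called in 16HBE14o-, 10.8% (7.21 to 15.3), where the whole list had 50.1%. With only 31 16HBE14o- peaks on the arm, few of the 251 could be shared. The low share and the lopsidedness thus follow from the counts that chose the arm. Of the 31 16HBE14o- peaks 20 were called in Calu3, 64.5% (45.4 to 80.8), where the whole list had 43.4%. All but 1 of the 31 met a CTCF peak, 96.8% (83.3 to 99.9), where the whole list had 65.3%. The exception, chr11:47199003-47199226 in 11p11.2, was the weakest, at rank 9446. By overlap, 19 of the 31 met both other lists, 11 met CTCF alone and 1 met Calu3 BRD8 alone. The few sites called in 16HBE14o- were therefore nearly all Calu3 CTCF sites. Among other arms with an excess of Calu3 BRD8 peaks, the share at CTCF was 88.9% on 10p, 85.7% on 3q and 84.9% on 7p. It was 69.8% on 18q and 57.1% on 3p. The share called in Calu3 was 74.9% on 3q, 73.1% on 7p, 55.6% on 10p, 50.4% on 3p and 43.4% on 18q. High shares of either kind were thus not particular to 11p.

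Merging all 3 lists gave 464 separate regions on the arm. CTCF alone accounted for 245 of them (52.8%), and Calu3 BRD8 with CTCF for 142 (30.6%). Calu3 BRD8 alone made up 46 (9.91%), all 3 lists met in 20 (4.31%), and 16HBE14o- BRD8 with CTCF made up 11 (2.37%). No region held 16HBE14o- BRD8 by itself. Shares of these classes over the whole genome are not given here, so none of them is read as particular to the arm.

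The deficit of 16HBE14o- BRD8 was present at strong and weak CTCF sites. CTCF peaks were divided into 5 classes of equal size over the whole CTCF list by signal. In the strongest class 19 of 90 CTCF peaks on the arm had 16HBE14o- BRD8 (21.1%), against 74.6% on the rest of the genome. From the second to the last class the shares were 7.79%, 3.19%, 0 and 2.11%, against 42.6%, 36.2%, 27.4% and 13.4%. The 0 was 0 of 79 peaks, which allows a share of up to 3.80% at a floor of 3 peaks, with an exact interval that reaches 4.56%. With Calu3 BRD8 the shares on the arm were 65.6%, 42.9%, 43.6%, 21.5% and 21.1% from the strongest class down, against 62.8%, 39.8%, 37.8%, 25.5% and 14.1%. BRD8 was thus more often called at stronger CTCF peaks in both lines, on the arm at a much lower level for 16HBE14o-.

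**Figure D3:**
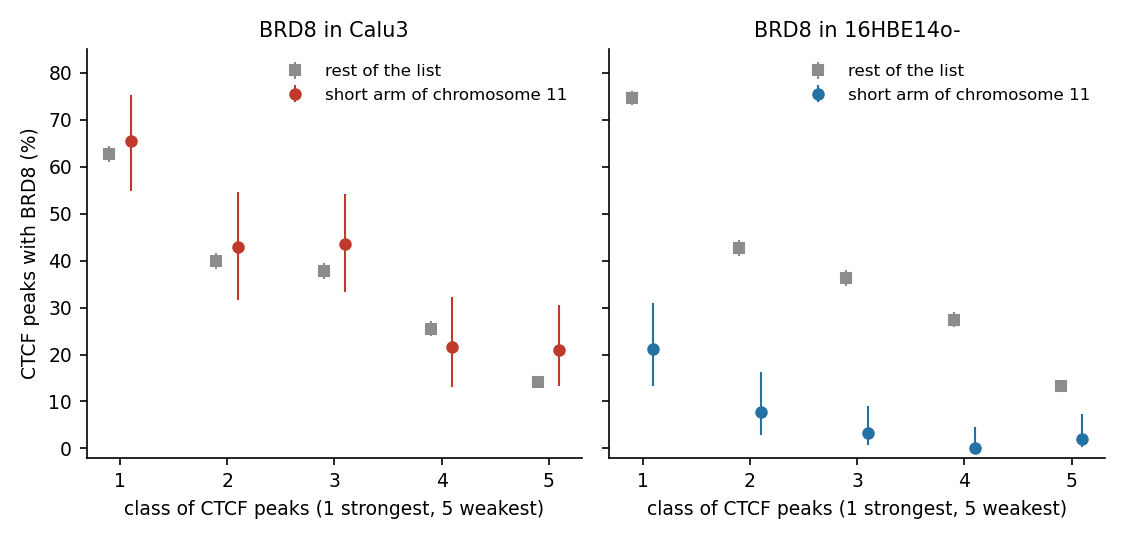
Percent of Calu3 CTCF peaks that overlap BRD8 in Calu3 (left) and in 16HBE14o- (right), by class of CTCF signal (1 strongest, 5 weakest), on the arm (circles) and on the rest of the genome (squares), with 95% exact intervals. The arm and the rest lie close together for Calu3, while the strongest class stands at 21.1% against 74.6% for 16HBE14o-.

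A ratio that allows for CTCF strength was taken by dividing the CTCF peaks with BRD8 by the number that the shares of the rest of the genome, decile by decile of CTCF signal, would give. For Calu3 BRD8, 170 peaks were observed and 155.9 computed, a ratio of 1.09 (0.932 to 1.27). For 16HBE14o- BRD8, 30 were observed and 167.8 computed, a ratio of 0.179 (0.121 to 0.255). Among the 41 arms with at least 20 CTCF peaks, 11p was the lowest by the 16HBE14o- ratio and 30th from the lowest by the Calu3 ratio. The short arm of chromosome 10 had a 16HBE14o- ratio of 0.183, inside the interval of 11p, so the order of these arms is not resolved.

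This ratio was also low in every bin. For 16HBE14o- it was 0.297 in bin 1, 0.114 in bin 2, 0.109 in bin 3 and 0.106 in bin 4. It was 0 in bins 5, 6 and 8, 0.0968 in bin 7, 0.287 in bin 9 and 0.168 in bin 10. In all 10 bins with CTCF peaks the interval lay below 1 and held the value of the whole arm. The Calu3 ratio ran from 0.220 in bin 6 to 1.59 in bin 9, and its interval held 1 in all 10. At the tip the 16HBE14o- ratio was 0.297 (0.170 to 0.482), against 0.123 (0.0672 to 0.206) on the rest of the arm, intervals that overlap. Without regard to CTCF strength, 13.3% (7.82 to 20.7) of CTCF peaks at the tip and 4.44% (2.45 to 7.34) on the rest had 16HBE14o- BRD8, intervals that do not overlap. The tip therefore had more 16HBE14o- BRD8 per CTCF peak than the rest of the arm in value, also at like CTCF strength, and fewer than the rest of the genome.

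**Figure D4:**
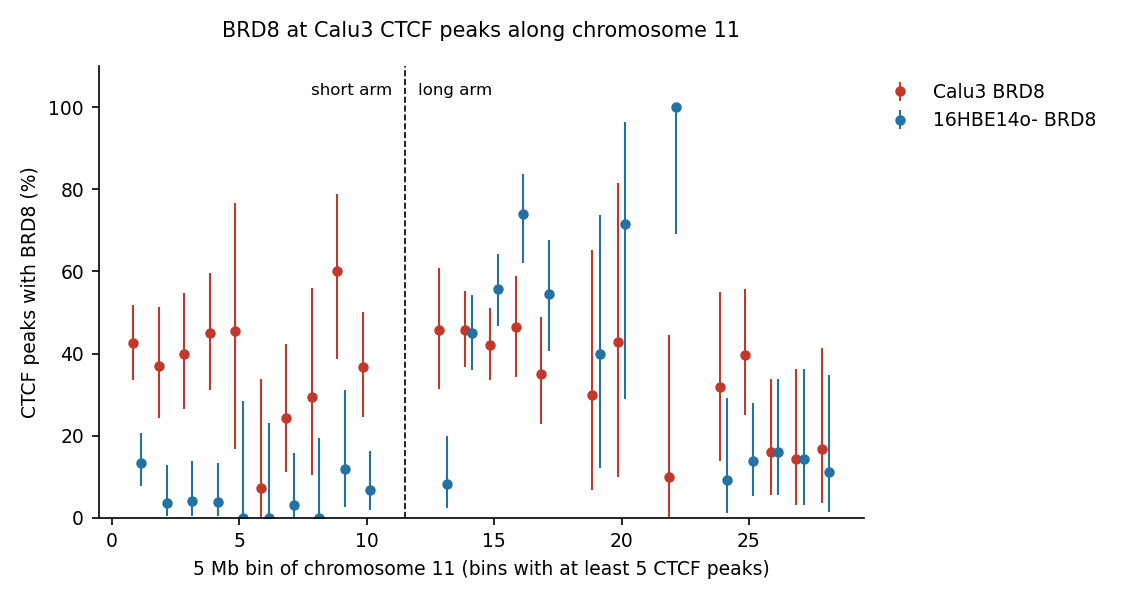
Percent of Calu3 CTCF peaks that overlap Calu3 BRD8 (red) and 16HBE14o- BRD8 (blue) in 5 Mb bins along chromosome 11 with at least 5 CTCF peaks, with 95% exact intervals and the arms parted by a dashed line. The 16HBE14o- share stays at or below 13.3% through the short arm and reaches 45.0% in the second long-arm bin shown.

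The low level did not end at the centromere. The nearest peaks of each list on both sides of the limit of the arm were 1.78 to 6.32 Mb from it. Bands 11p11.12 and 11p11.11 held no peak, and 11q11 held 1 CTCF peak. The last Calu3 BRD8 peak inside was chr11:47955949-47956424 (rank 5255) and the first outside chr11:56608687-56609162 (rank 6476). For 16HBE14o- they were chr11:47376904-47377127 (rank 2929) and chr11:57045390-57045613 (rank 5903). For CTCF they were chr11:48329370-48329659 (rank 6097) and chr11:55482756-55483045 (rank 12960). From the limit to 60 Mb the long arm held 27 Calu3 BRD8, 4 16HBE14o- BRD8 and 48 CTCF peaks, a ratio of 6.57 (2.29 to 25.8). In the bin from 60 to 65 Mb the counts were 81, 64 and 120, and the ratio was 1.23 (0.876 to 1.74).

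Next to the centromere, bands placed the change in 11q12. Band 11q12.1 held 27 Calu3 BRD8 and 4 16HBE14o- BRD8 peaks, 11q12.2 held 31 and 18, and 11q13.1 held 55 and 76. Of CTCF peaks 8.33% had 16HBE14o- BRD8 up to 60 Mb and 45.0% in the next bin. The first 16HBE14o- peak stronger than any on the short arm was chr11:60598561-60598784 in 11q12.2, of rank 2619, at 6.90 Mb from the limit. Towards the far end of the long arm, in the chromosome's 5 Mb bins 24 to 28, low 16HBE14o- values returned. There from 9.09% to 16.1% of CTCF peaks had 16HBE14o- BRD8, and the ratio that allows for CTCF strength was between 0.266 and 0.413 per bin. Its interval included 1 in bin 27 (0.0750 to 1.06) and bin 28 (0.0339 to 1.01). In bins 24, 25 and 26 the upper limits were 0.960, 0.662 and 0.963. The ratio of list shares was 6.32 (1.43 to 57.7) in bin 24 and 3.89 (0.777 to 37.6) in bin 28. In bins 25, 26 and 27 it was lower, at 2.59 (1.16 to 6.34), 1.08 (0.395 to 3.01) and 1.70 (0.433 to 7.93). For Calu3 BRD8 the ratio that allows for CTCF strength was 0.989 and 0.966 in bins 24 and 25. It was 0.463, 0.394 and 0.449 in bins 26, 27 and 28, with intervals that include 1. In value, bins 26 to 28 were thus low in both lines. On the long arm 189 of 440 16HBE14o- peaks exceeded the short-arm maximum. That maximum ranked 2929 of 9505, so many peaks of the whole list exceed it by definition, and the count is a description. The whole long arm held 335 Calu3 BRD8 peaks, a ratio of 0.741 (0.641 to 0.856), on the other side of 1 from the short arm.

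Of other arms with a similar excess of Calu3 BRD8 peaks, the short arm of chromosome 10 came closest. It held 79 Calu3 BRD8, 9 16HBE14o- BRD8 and 120 CTCF peaks, a ratio of 8.54 (4.28 to 19.4), and all 7 of its measured bins had a ratio of at least 3. There 6.67% of CTCF peaks had 16HBE14o- BRD8, close to the 6.90% on 11p. One of its 16HBE14o- peaks reached percentile 98.0, above the 69.2 that was the maximum on 11p. On the long arm of chromosome 3, with 820 Calu3 BRD8 and 251 16HBE14o- BRD8 peaks, the ratio was 3.18. Allowing for CTCF strength, BRD8 at CTCF peaks there was 0.656 of the computed number for 16HBE14o- and 1.38 for Calu3. On 11p the corresponding values were 0.179 and 1.09, and on the short arm of chromosome 10 they were 0.183 and 1.01. The short arms of chromosomes 10 and 11 thus shared a low 16HBE14o- value beside a Calu3 value near 1, and this was not particular to 11p.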

How the data were processed

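Each list holds peaks on hg19 in narrowPeak format, per the file headers, made by the authors from 2 replicates by IDR. The aligner, the peak caller, the control and the IDR settings are not given in the sources used here. Per the labels' protocols, nuclei were sonicated and fragments of 200 to 300 bp sequenced on an Illumina HiSeq. The deposited score column runs from 540 to 1000. The deposited signal column ranked peaks within a list. Another deposited column holds the summit's distance, in bp, from where its peak starts. The deposited p-value and q-value columns were not used.

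The members, the lists and most comparisons were chosen with earlier results of these data known. Peaks named in the text are the 5 strongest of each list on the arm, the 5 strongest Calu3 BRD8 peaks with no 16HBE14o- or no CTCF peak within 1 kb, the 16HBE14o- peaks with no Calu3 BRD8 peak within 1 kb, and those beside the limit of the arm; the weakest 16HBE14o- peak was named after its values were seen. Coordinates count from 1. Shares have exact Clopper-Pearson intervals, differences Newcombe intervals, ratios of list shares exact intervals from the binomial split, and standardised ratios exact Poisson intervals. Peaks are not replicates and neighbours are not independent, so no p-value was computed. Alternatives covered the overlap rule, peak width, list length, merging and the bins. Analyses used Python 3.11.15, numpy 2.4.6, pandas 2.3.3 and scipy 1.17.1, with overlaps checked against bedtools 2.31.1, bands from circlize 0.4.16 and figures from matplotlib 3.10.9.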

Additional observations from a re-analysis of the deposited data

How the results depend on the processing

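Of 82 alternatives, 63 were counted as unchanged, 15 as moved, 4 as weaker because an interval came to include no difference, and 0 as reversed. Shares and ratios were judged by their counting interval or side of no difference, and medians by the wider quartiles of the peaks. The 16HBE14o- median so counted as unchanged at 21.5 when ranked within the upper 50%, against 39.2 in the whole list. The 208 merged Calu3 BRD8 regions also counted as unchanged, though below the interval of the 251 peaks (221 to 284). Under a reciprocal overlap of 50% the share of Calu3 BRD8 peaks at CTCF was 48.6%, of CTCF peaks with Calu3 BRD8 27.6%, of Calu3 BRD8 peaks called in 16HBE14o- 1.59% and of 16HBE14o- peaks called in Calu3 12.9%. That rule fails by construction where a 224 bp 16HBE14o- peak meets a 476 bp Calu3 peak, the usual widths. Calu3 BRD8 at CTCF was 61.8% with summits within 100 bp and 68.5% with 200 bp peaks, where the difference from the rest was 5.89 points. In the upper 50% of each list it was 67.5% (difference 4.80 points), CTCF with 16HBE14o- BRD8 3.72%, Calu3 BRD8 called in 16HBE14o- 4.76%, the ratio of list shares 13.6 and the standardised 16HBE14o- ratio 0.0992. With lists of equal length Calu3 BRD8 at CTCF was 63.6%, CTCF with Calu3 BRD8 51.4% and CTCF with 16HBE14o- BRD8 10.98%. With bins of 10 Mb, 5 of 5 measured bins had a ratio of at least 3. The odds ratio of a 16HBE14o- peak was 1.74 with a tip of 2.5 Mb, 1.89 with 10 Mb and 7.26 in the upper 50%. Except where the construction is named, the cause was not tested. The tip, the standardised ratios, the differences from the rest and the merged counts, with their alternatives, were added after seeing the data. No paired analysis was possible because each experiment has 1 pooled list. With 31 16HBE14o- peaks, 0 to 5 in each bin but the first, the ratios of single bins are imprecise.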

Other observations

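The strongest Calu3 BRD8 peak of each bin shows how uneven the poor middle of the arm was. In bin 5 it was chr11:22897399-22897874 in 11p14.3, of rank 632, at 4631.80 kb from the nearest 16HBE14o- peak and over a CTCF peak of rank 8732. In bin 6 it was chr11:26003500-26003975 in 11p14.3, of rank 4511, with the nearest CTCF peak 244.9 kb away. In bin 8 it was chr11:36768559-36769034 in 11p12, of rank 729, over a CTCF peak of rank 8974. Bin 6 thus had no strong BRD8 site, while its neighbours on the poor stretch each had at least 1 in the top decile of the Calu3 list.

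The 16HBE14o- BRD8 peaks of the arm also differed from the rest of their list in which CTCF peaks and which Calu3 peaks they met. CTCF peaks with 16HBE14o- BRD8 had a median percentile of 87.7 on the arm (30 peaks) and 69.95 elsewhere. Calu3 BRD8 peaks called in 16HBE14o- had a median of 75.5 on the arm (27 peaks) and 61.8 elsewhere. Within the 16HBE14o- list the 20 arm peaks called in Calu3 had a median of 38.6 and the 11 others 43.9, where the rest of the genome had 64.8 and 39.3. These medians use the peaks that chose the arm, and no cause was tested.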
